A study of Rattus norvegicus with 16 samples.

Results

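Glomeruli of nephrotic rats that received pioglitazone were compared with glomeruli of nephrotic rats that received vehicle, over all genes of the deposited count table. The comparison used 8 of the 16 libraries of the series, 4 labelled PAN + Pio and 4 labelled PAN only, chosen by the treatment named in each count column. Every animal of both groups had been injected in the tail vein with puromycin aminonucleoside (PAN) at 50 mg/kg on day 0. The PAN+Pio rats were then given pioglitazone by mouth at 10 mg/kg a day, and the PAN rats vehicle by mouth. Glomeruli were isolated on day 11, with 4 rats in each group and one RNA library a rat. As reference, the series holds 4 sham rats without PAN that received vehicle, and 4 PAN+MP rats given methylprednisolone, a glucocorticoid, by intraperitoneal injection at 15 mg/kg a day. Strain, sex, age and hour of sampling are not given in the labels. The question of the study, as far as its design text states it, was which PAN-induced changes in glomerular RNA either drug reduces.

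PAN is a nucleoside toxin that injures podocytes, the octopus-shaped epithelial cells whose foot processes and slit diaphragms hold protein back in the blood, and rats injected with it become nephrotic. Pioglitazone is a thiazolidinedione that binds and activates PPAR gamma, a nuclear receptor which as a dimer with RXR switches on genes of fatty acid uptake and storage in adipocytes. It is an insulin sensitiser, and thiazolidinediones are known to lower proteinuria in experimental glomerular disease.

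The 16 libraries held between 22802109 and 32571877 counted reads. Replicate variance was at least 11.2 times the counting variance in every pair of libraries of a group. That ratio is an average over genes, in which those with many reads weigh most. For genes with few reads the depth can limit the tests as well. All libraries carried the defining RNAs of the glomerulus. In the PAN and PAN+Pio groups Podxl, which codes for the podocyte sialoprotein podocalyxin, averaged 12900 and 16100 CPM (read counts scaled to the size of each library). Proximal tubule RNA was present in every library, and its 26 markers summed to between 3150 and 15400 CPM in the PAN libraries and between 7640 and 10600 CPM in the PAN+Pio libraries. PAN library 2 was the lowest of all in these markers, and its part in the results was not tested beyond the values given without it. Of 12 adipocyte markers listed, 5 passed the filter on low counts, and the defining marker Adipoq averaged 0.317 CPM in PAN and 0.335 CPM in PAN+Pio. A principal component analysis used only the tested genes with the highest variance. Its first component held 35.8% of the variance of these genes. It placed the PAN libraries between 23.5 and 37.6, the PAN+Pio libraries between -5.0 and 6.0 and the sham libraries between -21.3 and -10.8.

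Pioglitazone was accompanied mainly by lower transcripts. Of 17061 genes tested, 628 changed between PAN+Pio and PAN at an adjusted p under 0.05 in edgeR's quasi-likelihood test, which is 3.68% of all tested genes. Of these, 142 (0.832%) were higher and 486 (2.85%) were lower under pioglitazone, and the median change of all tested genes was 0. At least a 4-fold change, 2 on the log2 scale, was reached by 3 of the higher and 27 of the lower genes. In 1823 genes (10.7%) the 4 PAN+Pio libraries did not overlap the 4 PAN libraries, with all PAN+Pio libraries above in 728 (4.27%) and all below in 1095 (6.42%). Lack of overlap was also a condition for naming some of the genes below, and for those it is no separate support. The authors' deposited table calls 903 genes for the same pair of groups. Of the 628 genes called here, 580 are among them with the same direction and 0 with the opposite one. The direction of the authors' changes was set by their correlation with the changes found here. Both sets of calls rest on the same libraries, so the match is no independent support. The count of 628 fell to 292 without PAN library 2, to 276 without PAN+Pio library 2 and to 382 without PAN+Pio library 4. The labels name the samples only as replicates of a group. The p-values set each change against the spread between libraries within a group, estimated over all 4 groups of the series.

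**Figure D1:**
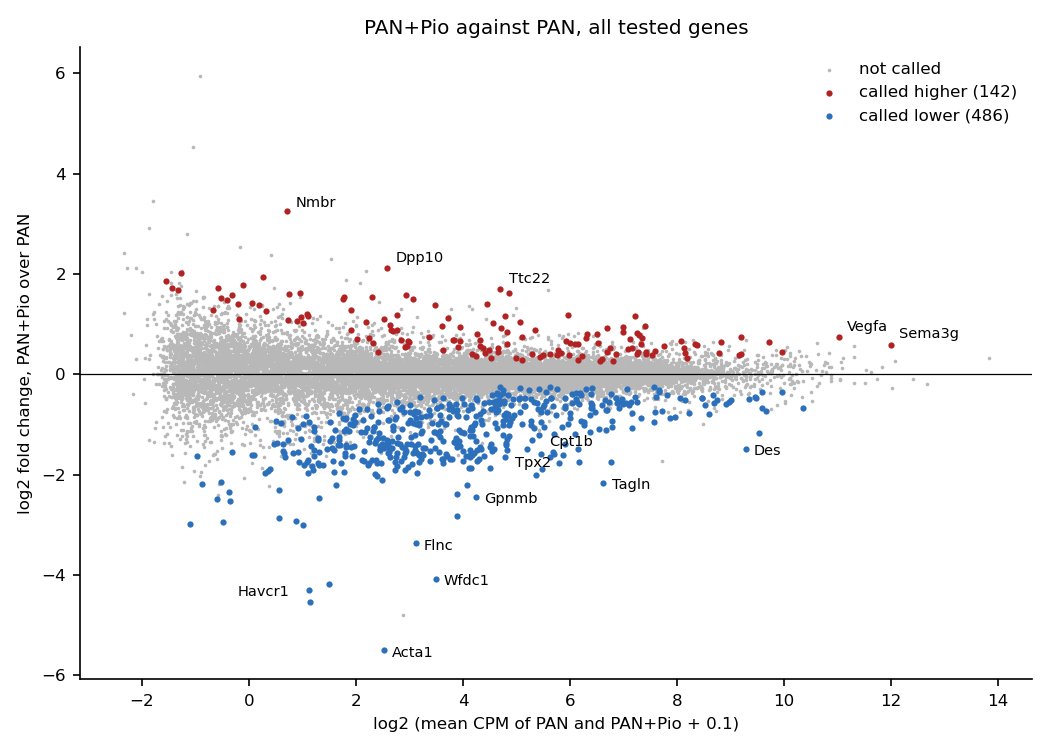
Change of each tested gene between PAN+Pio and PAN (log2 fold change, vertical axis) against its mean level over both groups (log2 of CPM plus 0.1, horizontal axis). Red points are the 142 genes called higher and blue points the 486 called lower, and the blue points reach further from 0 than the red ones.

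Genes of mitosis moved together. All 39 mitosis genes listed were tested, 38 fell under pioglitazone and none rose, against 2.85% of all tested genes called lower. The median change of the list was -1.54 on the log2 scale against 0 for all genes. Their summed level was 754 to 1250 CPM in the PAN libraries, 234 to 397 CPM in the PAN+Pio libraries and 182 to 305 CPM in sham, so the treated and untreated PAN libraries did not overlap. Tpx2, which codes for a spindle assembly factor that activates Aurora A kinase, measured 39.6, 55.1, 38.6 and 33.9 CPM in the PAN libraries and 16.5, 9.98, 15.8 and 16.4 CPM in the PAN+Pio libraries. Its change was -1.51 ± 0.19 (SE) on the log2 scale, 2.85-fold lower, with an adjusted p of 0.00132. The proliferation antigen gene Mki67 read 118, 135, 82.7 and 81.0 CPM in PAN and 43.3, 25.2, 43.3 and 38 CPM in PAN+Pio, a change of -1.48 ± 0.27 (adjusted p = 0.00688). Bub1b, a kinase of the spindle checkpoint, fell from 17.2 ± 3.72 to 5.93 ± 1.5 CPM (SD, n = 4; log2 change -1.54, adjusted p = 0.00306 in edgeR). The smallest fall of the called genes was that of Kif11, a spindle motor, at -0.76, and the largest that of Pbk, a mitotic kinase, at -1.91. Racgap1, which organises the central spindle in cytokinesis, did not pass, at -1.48 ± 0.41 with an adjusted p of 0.0593, although its PAN+Pio libraries were all below its PAN libraries. Leaving out 1 library at a time left 29 to 38 of the 39 genes lower. In bulk RNA, fewer dividing cells and less of these transcripts per cell cannot be told apart, which holds for every gene group below.

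**Figure D2:**
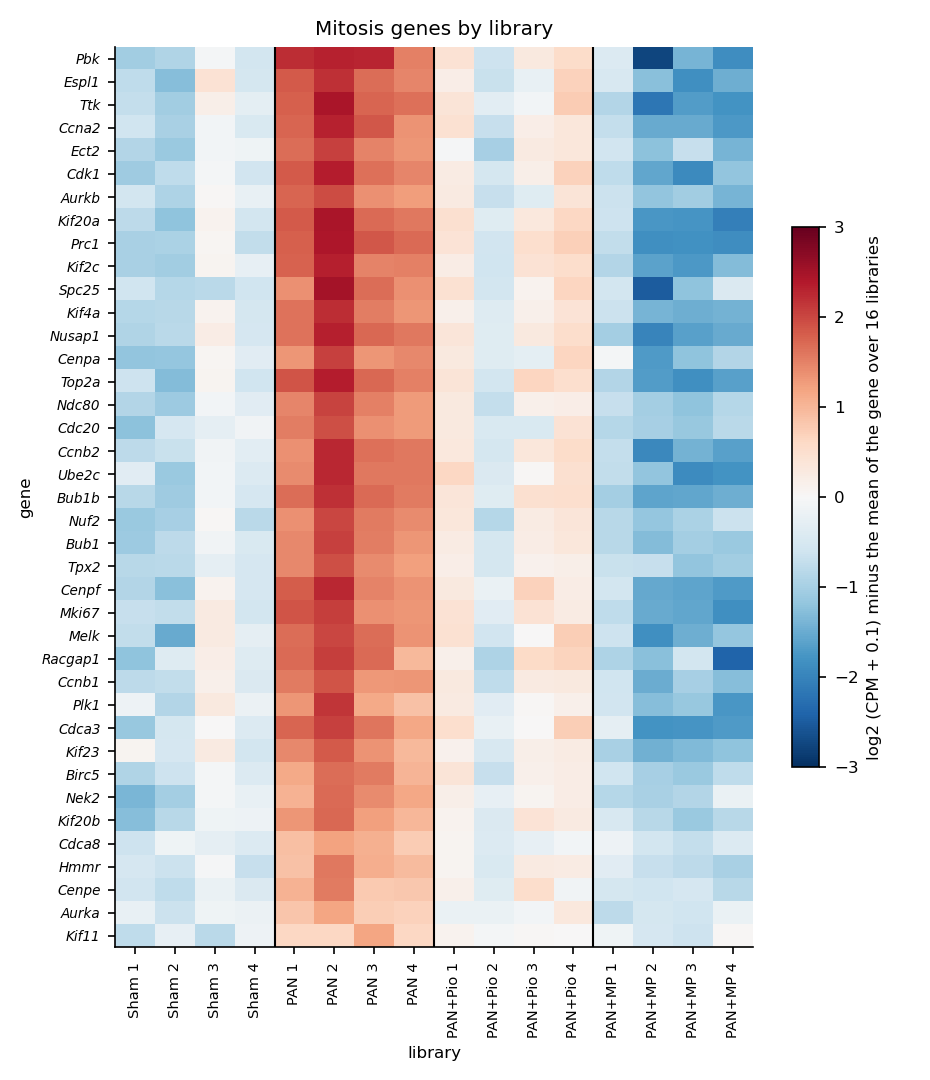
Level of the 39 mitosis genes in each of the 16 libraries, as log2 of CPM plus 0.1 minus the mean of the gene over all libraries (colour, red above and blue below the mean). The 4 PAN libraries are the only ones that are red in all genes, the PAN+Pio libraries lie near the mean, and most PAN+MP libraries lie below them.

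Many mitosis genes share 2 letter strings near their start. The strings are TTTGAA, known as the CHR element through which the DREAM complex can repress cell cycle genes, and CCAAT, bound by NF-Y. They were searched on both strands in 300 bases around each start (250 before, 50 after) in RefSeq's GRCr8 promoters, a newer build than the Rnor_6.0 of the counts. The search was chosen after the fall of these genes had been seen. TTTGAA was present in 23 of 34 promoters of the mitosis genes (67.6%) and in 18.3% of all 33469 promoters. CCAAT was present in 26 of the 34 (76.5%) and in 37.5% of all. Both together were held by 20 of the 34 (58.8%) and by 7.41% of all. A promoter was found for 33 of the 39 genes. The match of letters is a description and no measure of binding. Shown are the promoters of Ccnb2, Plk1 and Cdc20, whose products (cyclin B2, polo-like kinase 1 and an activator of the anaphase-promoting complex) drive entry into and exit from mitosis, with both strings in capitals. They lie at chr8:79981609-79981908 on the minus strand, chr1:186147408-186147707 on the plus strand and chr5:137255750-137256049 on the minus strand. Each is written from 5′ to 3′ along its gene.
Ccnb2: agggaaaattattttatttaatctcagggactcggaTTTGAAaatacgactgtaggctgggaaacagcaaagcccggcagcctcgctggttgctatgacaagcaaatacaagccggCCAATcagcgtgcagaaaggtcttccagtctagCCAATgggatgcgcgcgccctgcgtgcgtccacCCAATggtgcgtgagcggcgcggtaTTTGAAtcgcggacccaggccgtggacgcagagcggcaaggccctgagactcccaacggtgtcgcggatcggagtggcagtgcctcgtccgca
Plk1: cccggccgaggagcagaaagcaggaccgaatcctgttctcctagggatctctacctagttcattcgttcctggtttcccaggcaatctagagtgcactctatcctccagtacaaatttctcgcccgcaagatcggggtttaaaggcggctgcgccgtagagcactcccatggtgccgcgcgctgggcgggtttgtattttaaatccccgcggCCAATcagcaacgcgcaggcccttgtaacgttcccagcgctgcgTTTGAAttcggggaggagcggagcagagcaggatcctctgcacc
Cdc20: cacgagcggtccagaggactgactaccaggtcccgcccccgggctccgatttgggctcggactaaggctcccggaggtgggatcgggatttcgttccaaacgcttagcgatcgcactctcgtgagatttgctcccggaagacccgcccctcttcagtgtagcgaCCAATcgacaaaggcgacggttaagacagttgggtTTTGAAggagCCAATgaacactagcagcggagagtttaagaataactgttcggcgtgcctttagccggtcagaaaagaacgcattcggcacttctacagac
Ccnb2, with each string present more than once, measured 7.60, 14.2, 9.28 and 8.84 CPM in the PAN libraries and 3.61, 1.96, 3.67 and 4.28 CPM in the PAN+Pio libraries (log2 change -1.56 ± 0.28, adjusted p = 0.0068). Plk1, with 1 match to each, measured 8.12, 14.4, 7.11 and 5.91 CPM in PAN and 3.86, 2.46, 3.26 and 3.52 CPM in PAN+Pio (-1.44 ± 0.31, adjusted p = 0.0154). Cdc20 fell by 1.56 on the log2 scale from a mean of 27.4 to 9.30 CPM (adjusted p = 0.0032). In all of these genes PAN library 2 was the highest library of the PAN group, and PAN+Pio library 2 the lowest or equal lowest of its group.

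Genes of DNA replication and of the step from G1 to S phase fell in part. Of 37 tested, 12 fell and none rose, against 2.85% of all tested genes called lower. The median was -0.69, and all 37 changes were below 0. Ccne1, cyclin E1, which starts S phase with CDK2, read 4.06, 3.60, 3.45 and 1.87 CPM in PAN and 1.08, 0.691, 0.693 and 0.871 CPM in PAN+Pio, a change of -1.96 ± 0.29 (adjusted p = 0.00233). The lowest PAN library was above the highest PAN+Pio library. Cdc6 and Clspn, which license and guard replication origins and forks, fell by 1.47 and 1.41 on the log2 scale (adjusted p = 0.0139 and 0.00532 in edgeR). Cdc6 lost its call in 2 of the 8 fits without 1 library (highest adjusted p over the 17 alternatives, 0.0582). The count of 12 was 4 without PAN library 2 and 3 without PAN+Pio library 2.

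The cell cycle inhibitor moved in the same direction as the cyclins. Cdkn1a, which codes for p21, an inhibitor of cyclin-dependent kinases induced by p53, measured 38.6, 51.1, 43.3 and 33.2 CPM in PAN and 17.4, 9.32, 15.1 and 11.0 CPM in PAN+Pio. Sham libraries averaged 10.4 CPM. Its change was -1.65 ± 0.23 on the log2 scale, 3.15-fold lower (adjusted p = 0.0018), and the groups did not overlap. Among 26 p53 target genes 5 fell and none rose, with a median of -0.35, against 2.85% of all tested genes called lower. Phlda3, a p53-induced inhibitor of AKT, showed little spread, with 14.9, 16.5, 15.4 and 14.1 CPM in PAN and 8.10, 7.94, 6.56 and 8.10 CPM in PAN+Pio (-0.99 ± 0.12, adjusted p = 0.000936). Ccng1, cyclin G1, fell from a mean of 263 to 159 CPM (-0.73, adjusted p = 0.0157) and had a sham mean of 84.3 CPM; its call was lost in 4 of the 8 fits without 1 library (highest adjusted p 0.0569). The 5 target genes called were 3 without PAN library 2, PAN library 3 or PAN+Pio library 4, and 2 without PAN+Pio library 2.

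Desmin and part of the contractile and filament genes fell, and in which cells they fell was not tested. Des codes for desmin, an intermediate filament protein of mesangial and muscle cells that injured rat podocytes also make. It measured 1070, 1260, 701 and 637 CPM in the PAN libraries and 347, 275, 359 and 328 CPM in the PAN+Pio libraries. PAN libraries 1 and 2 were the highest, and the lowest PAN library was still above every PAN+Pio library. The change was -1.49 ± 0.21 on the log2 scale, 2.81-fold lower, with an adjusted p of 0.0018. Tagln, which codes for transgelin (SM22), an actin-binding protein of contractile cells, read 161, 188, 185 and 112 CPM in PAN and 40.4, 27.4, 49.2 and 26.4 CPM in PAN+Pio (-2.17 ± 0.25, adjusted p = 0.000697). Flna, the actin crosslinker filamin A, fell from 1610 to 1000 CPM (-0.68 ± 0.11, adjusted p = 0.00389), and its muscle paralogue Flnc from 15.6 to 1.51 CPM (-3.37 ± 0.62, adjusted p = 0.00698). For Flnc the PAN libraries themselves ranged from 3.77 to 39.7 CPM. Anln, anillin, which links actin to the membrane, fell by 1.19 (adjusted p = 0.0018). Of 33 contractile and filament genes 10 fell and none rose (median -0.36), where 2.85% of all tested genes were called lower. Without PAN library 2, 6 of them were called lower. Of 20 mesangial and smooth muscle markers 7 fell and none rose (median -0.43), Des, Tagln and Acta2 being members of both lists. That count was 3 without PAN library 2, PAN library 4 or PAN+Pio libraries 1, 2 or 4 in turn, and 4 without PAN library 3. Sfrp2, a secreted modulator of Wnt signalling on the mesangial list, fell from 331, 392, 274 and 283 CPM to 180, 189, 148 and 185 CPM (-0.86 ± 0.16, adjusted p = 0.00827).

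Striated muscle transcripts split into those that fell and those that did not pass. Of 28 sarcomere genes 3 fell and none rose, against 2.85% of all tested genes called lower. The count was 3 in each of the 8 fits without 1 library. Acta1, skeletal muscle alpha actin, read 9.73, 24.3, 5.35 and 4.57 CPM in PAN and 0.166, 0.0384, 0.611 and 0.151 CPM in PAN+Pio, that is 1173 reads over the PAN libraries and 24 over the PAN+Pio libraries (-5.50 ± 0.64, adjusted p = 0.000697). Actc1, cardiac alpha actin, had 422 and 17 reads (-4.54 ± 0.65, adjusted p = 0.00198). The actin genes are close copies of each other, so reads could be split between them in counting. Ldb3, a protein of the Z-disc, read 45.6, 48.1, 21.8 and 27.4 CPM in PAN and 13.6, 8.10, 8.31 and 9.09 CPM in PAN+Pio (-1.87 ± 0.23, adjusted p = 0.00118). Trim72, a membrane repair protein of muscle that is on no list, read 4.87, 3.23, 2.62 and 2.93 CPM in PAN and 0.415, 0.230, 0.815 and 0.227 CPM in PAN+Pio (-3.01 ± 0.35, adjusted p = 0.000697). Ttn, the giant spring protein titin, read 574, 388, 174 and 323 CPM in PAN and 260, 184, 313 and 133 CPM in PAN+Pio, which overlapped (-0.71 ± 0.47, adjusted p = 0.525). Synpo2l, an actin-bundling relative of the podocyte protein synaptopodin, read 513, 562, 341 and 494 CPM in PAN and 324, 243, 226 and 176 CPM in PAN+Pio, without overlap but not called (-0.98 ± 0.35, adjusted p = 0.158).

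**Figure D3:**
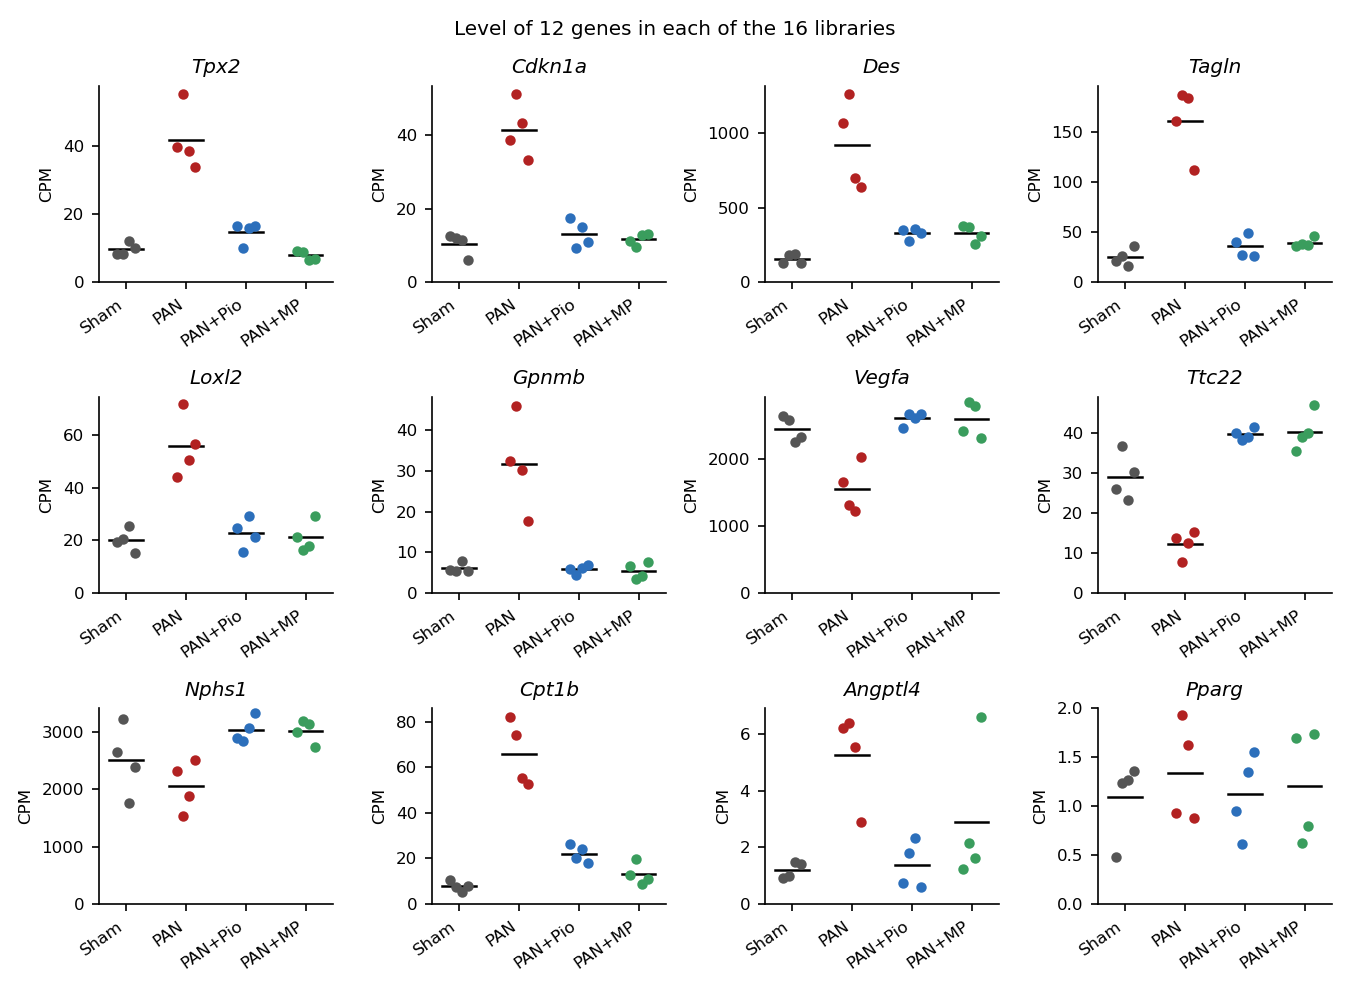
Level of 12 genes as read counts scaled to library size (CPM, vertical axes, starting at 0) in each library of the sham, PAN, PAN+Pio and PAN+MP groups. Points are libraries and bars group means; the PAN and PAN+Pio points do not overlap in any of the genes except Pparg, although Nphs1 did not pass the test across all genes.

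Interstitial matrix genes fell in part. Of 39 interstitial matrix genes 9 fell and 1 rose, with a median of -0.36. Col5a1, a fibril-nucleating collagen chain, read 138, 177, 150 and 127 CPM in PAN and 99.0, 83.2, 97.9 and 89.0 CPM in PAN+Pio (-0.68 ± 0.10, adjusted p = 0.00191). Col6a3, of the beaded filament collagen, fell from 102 to 50.7 CPM (-1.0 ± 0.21, adjusted p = 0.0128), and Eln, elastin, from 24.3 to 11.3 CPM (-1.10 ± 0.25, adjusted p = 0.0224). The gene that rose, Efemp1, codes for fibulin-3 and went from 21.8 to 45.1 CPM (1.05 ± 0.23, adjusted p = 0.0185). Col1a1, the main chain of collagen I, read 228, 83.2, 67.5 and 480 CPM in PAN and 166, 75.8, 144 and 270 CPM in PAN+Pio, and the groups overlapped (-0.39 ± 0.53, adjusted p = 0.812). Fn1, fibronectin, had all PAN+Pio libraries below all PAN libraries, at 224 to 390 against 431 to 739 CPM, without passing (-0.73 ± 0.23, adjusted p = 0.0956). Of 22 basement membrane genes 1 fell, Nid1 (nidogen, -0.59, adjusted p = 0.026), and none rose, with a median of -0.02, against 2.85% of all tested genes called lower. The calls of Efemp1 and Nid1 were each lost in 4 of the 8 fits without 1 library, that of Eln in 5 and that of Col6a3 in 1, with highest adjusted p of 0.069, 0.0946, 0.0771 and 0.0533. Col4a3, a collagen IV chain made by podocytes, stood at 0.37 ± 0.17 (adjusted p = 0.314).

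Among enzymes that crosslink and remodel matrix, and their inhibitors, most of the called genes fell. Of 47 tested, 12 fell and 2 rose (median -0.27). Loxl2, a lysyl oxidase that crosslinks collagen IV and I, read 43.9, 71.5, 50.5 and 56.5 CPM in PAN and 24.6, 15.5, 29.3 and 21.2 CPM in PAN+Pio (-1.30 ± 0.22, adjusted p = 0.00458). Its relative Loxl1, needed for elastic fibres, read 99.1, 132, 97.6 and 116 CPM in PAN and 66.3, 66.3, 61.1 and 68.1 CPM in PAN+Pio (-0.76 ± 0.11, adjusted p = 0.00185). Adamts14, which trims procollagen, fell from 84.5, 86.0, 47.3 and 46.9 CPM to 19.7, 8.40, 18.9 and 18.6 CPM (-2.01 ± 0.28, adjusted p = 0.0018). None of these groups of libraries overlapped. Plat, the tissue plasminogen activator, rose from 848 to 1150 CPM (0.44 ± 0.11, adjusted p = 0.0417), a call lost in 6 of the 8 fits without 1 library (highest adjusted p over the 17 alternatives, 0.129). Mmp12, the elastase of macrophages, fell by 1.83 (adjusted p = 0.00756) and the gelatinase gene Mmp2 by 0.81 (adjusted p = 0.00645 in edgeR). Of 30 TGF beta ligands, receptors and readouts 1 fell and none rose (median -0.12), a share near the 2.85% of all tested genes. Without PAN library 2 or PAN+Pio libraries 2 or 4, 5 interstitial matrix genes and 7 enzymes were called lower, and the 2 enzymes called higher were 0 without PAN library 2, PAN library 3 or PAN+Pio library 4.

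Macrophage markers and MHC class II genes were lower under pioglitazone. Of 22 macrophage markers 10 fell and none rose, with a median of -0.85, and their sum was 680 to 1060 CPM in PAN, 438 to 542 CPM in PAN+Pio and 485 to 621 CPM in sham. Gpnmb, a transmembrane glycoprotein of lipid-laden and phagocytic macrophages, read 32.6, 46.1, 30.3 and 17.8 CPM in PAN and 5.81, 4.41, 6.15 and 6.93 CPM in PAN+Pio (-2.44 ± 0.28, 5.44-fold lower, adjusted p = 0.000697). Ctss, the lysosomal protease cathepsin S, read 46.7, 40.3, 42.3 and 33.1 CPM in PAN and 18.7, 12.6, 17.3 and 20.4 CPM in PAN+Pio (-1.23 ± 0.22, adjusted p = 0.0056). Both pairs of groups lay apart. C1qa and C1qb, complement C1q chains made by macrophages, fell by 1.22 and 1.46 (adjusted p = 0.0226 and 0.0175 in edgeR), and Lgals3, galectin 3, by 1.57 (adjusted p = 0.0267). These 3 calls were lost in 5, 2 and 4 of the 8 fits without 1 library, with highest adjusted p of 0.0881, 0.0725 and 0.104. Cd68, a lysosomal glycoprotein of macrophages, did not pass at -0.76 ± 0.21 (adjusted p = 0.053). Of 8 MHC class II genes, which present antigen, 5 fell (median -0.73). RT1-Da, the alpha chain of a rat class II molecule, read 213, 170, 184 and 204 CPM in PAN and 95.6, 87.3, 74.8 and 113 CPM in PAN+Pio (-1.06 ± 0.20, adjusted p = 0.00867), and RT1 genes are close copies between which counting can split reads. Of 25 complement genes 4 fell, C1qa and C1qb among them. For all 3 lists the share to compare is the 2.85% of all tested genes called lower. The part of macrophage RNA in the fall of Mmp12 and of the class II genes was not tested. The macrophage count of 10 was 3 without PAN library 1 or 2, and 2, 5 and 4 without PAN+Pio libraries 2, 3 and 4, and DESeq2 called 16. The class II count was 3 without PAN library 1 or 3 and 2 without PAN+Pio library 1 or 2, and the complement count was 0 without PAN library 1 or PAN+Pio library 2.

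Other immune lists held at most 1 called gene each, where 2.85% of all tested genes were called lower. A single called gene in lists this short is no result about the list. None of 32 interferon response genes passed in edgeR's test (0 at an unadjusted p under 0.05, 0 called by DESeq2, median 0.12). Ptgs2, the inducible cyclooxygenase, was the 1 gene called of 24 NF-kB targets, at 19.2, 22.0, 20.2 and 23.9 CPM in PAN and 12.6, 10.2, 12.8 and 11.6 CPM in PAN+Pio (-0.85 ± 0.14, adjusted p = 0.00346). Of these 24 changes 7 were above 0, the median was -0.18, and DESeq2 called 3 lower. Of 8 neutrophil markers none of the changes was above 0 (median -0.36), and 1 fell, Ncf1, a subunit of the phagocyte oxidase (-0.74 ± 0.18, adjusted p = 0.0343), a call lost in 7 of the 8 fits without 1 library (highest 0.123). Of 16 lymphocyte markers 10 changes were above 0 (median 0.18), and 1 fell, Cd4, which rat macrophages also express, from 25.6, 28.7, 20.9 and 25.1 CPM to 16, 12.0, 13.5 and 16.5 CPM (-0.79 ± 0.17, adjusted p = 0.0143). It lost its call in 2 of the 8 fits (highest 0.0629).

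Podocyte genes that passed rose by small amounts. Of 31 podocyte markers outside the slit diaphragm 5 rose and none fell, 26 of the 31 changes were above 0, and the median was 0.37, where 0.832% of all tested genes were called higher. Their sum was 29200 to 42800 CPM in PAN and 41600 to 44900 CPM in PAN+Pio, and PAN library 1 overlapped the treated range. Vegfa, the growth factor by which podocytes maintain the glomerular endothelium, read 1660, 1310, 1230 and 2040 CPM in PAN and 2470, 2680, 2620 and 2670 CPM in PAN+Pio, with a sham mean of 2460 CPM. All treated libraries were above all PAN libraries (0.74 ± 0.14, 1.67-fold higher, adjusted p = 0.00785), and the call was kept in all 17 alternatives. Sema3g, a podocyte semaphorin, read 3830, 2440, 3060 and 3690 CPM in PAN and 4730, 4570, 5060 and 5190 CPM in PAN+Pio (0.59 ± 0.15, adjusted p = 0.0449). Thsd7a, an antigen of membranous nephropathy, and Clic3, a chloride channel family protein, were called too (0.58 and 0.65, adjusted p = 0.0481 and 0.0428 in edgeR). The calls of Sema3g and Clic3 were each lost in 6 of the 8 fits without 1 library (highest adjusted p 0.122 and 0.129). Wt1, the transcription factor that defines podocytes, stood at 374 CPM in PAN and 462 CPM in PAN+Pio (0.30 ± 0.17, adjusted p = 0.417). Markers of other cells had higher medians. Of 12 erythroid markers 1 rose and none fell, 11 changes were above 0 and the median was 0.63, with sums of 1660 to 2760 CPM in PAN and 1900 to 4420 CPM in PAN+Pio. The called gene was Epb42, the red cell membrane protein 4.2 (0.74 ± 0.16, adjusted p = 0.0153), and the erythroid count was 0 without PAN library 2 or PAN+Pio library 4, 2 without PAN library 4 and 5 without PAN+Pio library 3. Of 20 distal nephron and collecting duct markers none passed in edgeR's test (2 at an unadjusted p under 0.05, 1 called by DESeq2), 17 changes were above 0 and the median was 0.42. The part of these cells in the podocyte changes was not tested. The podocyte count of 5 was 3 without PAN library 1, 2 without PAN+Pio library 3, and 1, Vegfa, without PAN library 2, PAN library 3 or PAN+Pio libraries 1, 2 or 4, so that the call of Thsd7a was lost in these fits too.

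At the slit diaphragm 1 of 18 genes rose and none fell, with a median of 0.20, against 0.832% of all tested genes called higher. That gene was Pard6b, of the Par polarity complex, at 68.1, 53.5, 81.3 and 87.7 CPM in PAN and 114, 104, 112 and 116 CPM in PAN+Pio (0.62 ± 0.15, adjusted p = 0.0363). The call was lost in 6 of the 8 fits without 1 library, with a highest adjusted p of 0.107. Mpp5, a partner of that complex also called PALS1 and on no list, rose from 441, 329, 456 and 532 CPM to 715, 660, 824 and 745 CPM (0.74 ± 0.15, adjusted p = 0.0119). Nphs1, which codes for nephrin, the main adhesion protein of the slit, read 2320, 1530, 1880 and 2510 CPM in PAN and 2890, 2830, 3060 and 3320 CPM in PAN+Pio. The libraries did not overlap, but the change of 0.56 ± 0.17 did not pass across all genes (adjusted p = 0.09). Magi2, a scaffold of the slit diaphragm, read 101 CPM in PAN and 148 CPM in PAN+Pio against 547 CPM in sham (0.54 ± 0.20, adjusted p = 0.17).

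The receptor of the drug and its partners did not pass. Pparg had a low level in these glomeruli, with 145 reads over the PAN and 113 over the PAN+Pio libraries, at 0.925, 1.93, 1.62 and 0.876 CPM in PAN and 0.955, 0.614, 1.35 and 1.55 CPM in PAN+Pio (-0.26 ± 0.41, adjusted p = 0.845), and its groups overlapped. Ppara and Ppard, the other 2 PPAR genes, stood at 40.7 and 51.3 CPM in PAN and 38.2 and 51.1 CPM in PAN+Pio (adjusted p = 0.945 and 0.991 in edgeR). Rxra, the dimer partner, read 47.9, 48.1, 47.9 and 49.6 CPM in PAN and 40.3, 42.3, 32.8 and 44.2 CPM in PAN+Pio, all lower but not called (-0.28 ± 0.08, adjusted p = 0.0888). Of 24 genes for PPAR and RXR receptors and coregulators none passed in edgeR's test (4 at an unadjusted p under 0.05, 1 called by DESeq2, median 0.03).

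In the lipid lists, which hold many genes that PPARs are known to switch on, 1 gene rose and 5 fell of 76 tested, where 0.832% of all tested genes were called higher and 2.85% lower. Of 21 genes of fatty acid uptake and transport 2 fell and none rose (median -0.13), of 32 of fatty acid oxidation 3 fell and none rose (median -0.10), and of 23 of lipid droplets 1 rose and none fell (median -0.10). Cd36, the fatty acid translocase, read 89.0, 87.1, 76.5 and 56.1 CPM in PAN and 41.7, 33.8, 46.6 and 28.1 CPM in PAN+Pio, with a sham mean of 44.3 CPM. All treated libraries were below all PAN libraries (-1.04 ± 0.22, adjusted p = 0.0141), and the call was lost without PAN+Pio library 2 (adjusted p = 0.0576) or 4 (adjusted p = 0.0504). Angptl4, a secreted inhibitor of lipoprotein lipase and a classical PPAR target, read 6.23, 6.38, 5.55 and 2.90 CPM in PAN and 0.748, 1.80, 2.32 and 0.606 CPM in PAN+Pio (-1.94 ± 0.51, adjusted p = 0.0454). Its call was lost in 6 of the 8 fits without 1 library, as was that of Pdk4, a kinase that turns glucose oxidation down, which fell from 70.2 to 19.0 CPM (-1.89 ± 0.48, adjusted p = 0.0399). Their highest adjusted p over the alternatives were 0.129 and 0.125. Cpt1b, the muscle form of the carnitine palmitoyltransferase that lets long-chain fatty acids into mitochondria, read 82.2, 74.1, 55.4 and 52.5 CPM in PAN and 26.2, 20.1, 24.0 and 17.8 CPM in PAN+Pio. This fall of 1.59 ± 0.24 on the log2 scale (adjusted p = 0.00306) was kept in all 17 alternatives. Ucp2, an uncoupling protein of the inner mitochondrial membrane, was the third that fell, from 80 to 47 CPM (-0.77 ± 0.17, adjusted p = 0.0184), and lost its call in 4 of the 8 fits (highest 0.0702). Cpt1a, the liver form, did not pass (-0.30 ± 0.20, adjusted p = 0.549).

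Of the remaining lipid genes several lay below PAN without a call. Lpl, lipoprotein lipase, read 283, 469, 301 and 283 CPM in PAN and 193, 168, 230 and 205 CPM in PAN+Pio (-0.75 ± 0.22, adjusted p = 0.0802). Plin2, a lipid droplet coat protein and PPAR target, read 75.9, 72.9, 80.5 and 62.9 CPM in PAN and 59.9, 53.7, 57.5 and 52.1 CPM in PAN+Pio (-0.39 ± 0.15, adjusted p = 0.19). Both genes had no overlap between the groups. Fabp4, the adipocyte fatty acid binding protein, averaged 1.81 and 0.728 CPM with overlap (-1.32 ± 0.63, adjusted p = 0.325). Plin3, another droplet coat protein, was the gene that rose, from 52.6, 51.6, 57.6 and 58.5 CPM to 77.7, 66.7, 69.6 and 72.8 CPM (0.38 ± 0.07, adjusted p = 0.00536). Its call was lost with only the 2 groups compared (highest adjusted p 0.0551). The cholesterol exporters Abca1 and Abcg1 fell by 0.93 and 0.69 (adjusted p = 0.0136 and 0.0295 in edgeR), calls lost in 1 and 4 of the 8 fits (highest 0.0593 and 0.108). The list of cholesterol synthesis and SREBP targets also holds these 2 exporters, and of its 32 tested genes no others were called. Of all tested genes 2.85% were called lower. On this list 22 changes were above 0 (median 0.09). The uptake count of 2 was 0 without PAN+Pio library 2 or 4 and 1 without PAN libraries 1, 2 or 3 or PAN+Pio library 1, and the oxidation count of 3 was 1 without PAN libraries 1 or 2 or PAN+Pio libraries 1 or 4. The letters of the PPAR response element DR1, in its exact form, were on neither strand in any of 61 promoters of these lists (58 of 76 genes), against 0.0538% of all promoters, which says only that these letters are not in this window.

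**Figure D4:**
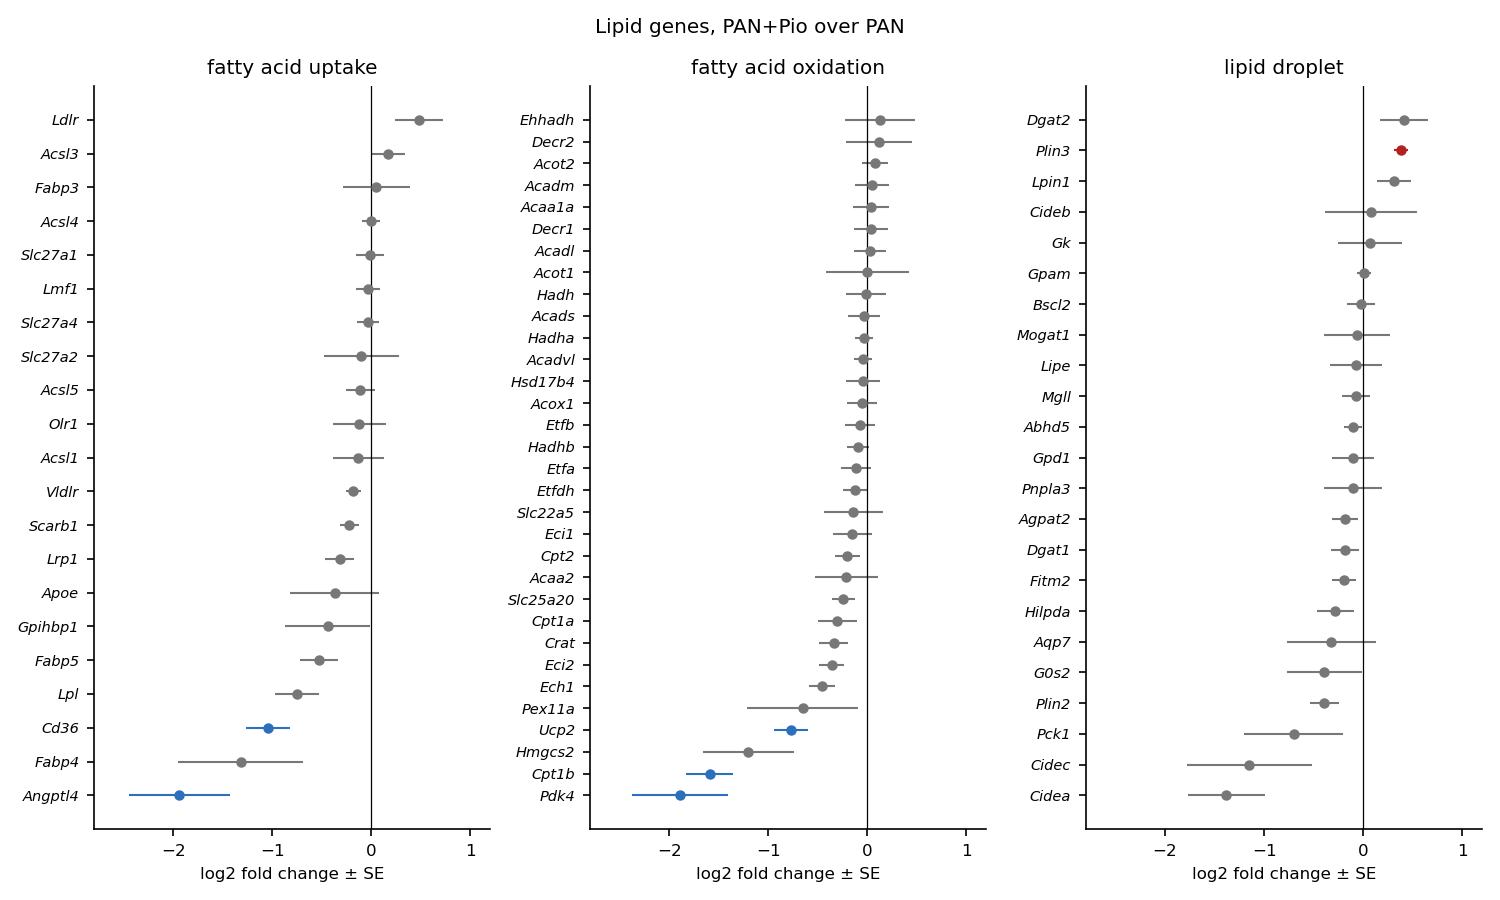
Change between PAN+Pio and PAN (log2 fold change with its standard error, horizontal axes) for each tested gene of fatty acid uptake, fatty acid oxidation and lipid droplets. Blue points were called lower, the red point (Plin3) higher and grey points did not pass.

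Single genes outside these groups rose too. Nmbr, the receptor of neuromedin B, read 0.241, 0.0742, 0.483 and 0.343 CPM in PAN and 4.11, 3.38, 1.75 and 1.97 CPM in PAN+Pio, against a sham mean of 17.4 CPM (3.26 ± 0.50, adjusted p = 0.0032). Dpp10, an auxiliary subunit of potassium channels, rose by 2.12 ± 0.42 (adjusted p = 0.0109). Ttc22, a tetratricopeptide repeat protein, read 13.6, 7.71, 12.4 and 15.1 CPM in PAN and 39.9, 38.2, 39.0 and 41.3 CPM in PAN+Pio, with a sham mean of 29.0 CPM (1.70 ± 0.18, adjusted p = 0.000416). All 3 calls were kept in all 17 alternatives. Ptger1, the EP1 receptor of prostaglandin E2, rose from 12.0 to 31.7 CPM (1.40 ± 0.27, adjusted p = 0.00878), and Scx, the transcription factor scleraxis of tendon and mesangium, from 6.12 to 16 CPM (1.39 ± 0.23, adjusted p = 0.00382). Tspan15, a tetraspanin that guides the protease ADAM10, and Disp1, which releases hedgehog ligands, rose by 0.93 and 0.82 (adjusted p = 0.00104 and 0.00346 in edgeR). Adrb1, the beta 1 adrenergic receptor, rose by 1.51 ± 0.40 (adjusted p = 0.0472), a call lost in 6 of the 8 fits without 1 library (highest adjusted p 0.129), and Nos1, neuronal nitric oxide synthase, by 1.55 ± 0.37 (adjusted p = 0.0297), lost in 5 (highest 0.09).

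Single genes outside the groups above also fell. Wfdc1, a secreted protein with a WAP domain, read 33.0, 29.3, 10.8 and 10.8 CPM in PAN and 1.5, 0.806, 0.978 and 1.70 CPM in PAN+Pio (-4.07 ± 0.42, 16.8-fold lower, adjusted p = 0.000416). Its PAN libraries formed a high pair, 1 and 2, and a low pair, 3 and 4. Lack of overlap with the treated libraries was a condition of the rule that named Wfdc1. Havcr1, which codes for kidney injury molecule 1, a marker of injured proximal tubule, read 8.61, 1.56, 3.83 and 1.83 CPM in PAN and 0.0831, 0.384, 0.204 and 0.114 CPM in PAN+Pio, with 415 and 20 reads in all (-4.29 ± 0.69, adjusted p = 0.00354). Of the 19 kidney injury genes, among them Havcr1, 3 fell and none rose (median -0.19), against 2.85% of all tested genes called lower. The others that fell were Anxa2, annexin A2, and Timp1, an inhibitor of metalloproteinases (-0.48 each, adjusted p = 0.0169 and 0.0236 in edgeR). The calls of Anxa2 and Timp1 were lost in 2 and 6 of the 8 fits without 1 library (highest adjusted p 0.0721 and 0.0868). The injury count was 1 without PAN library 2 or PAN+Pio library 2. The 26 proximal tubule markers had 0 calls in edgeR (0 at an unadjusted p under 0.05, 0 by DESeq2). Gprc5a, an orphan receptor, fell by 2.39 ± 0.36 (adjusted p = 0.00236) and Iqsec3, an exchange factor of Arf proteins, by 4.18 ± 0.76 (adjusted p = 0.00676). Mfge8, a bridging protein for the uptake of dying cells, fell from 953 to 594 CPM (-0.68 ± 0.11, adjusted p = 0.0039). Cry1, a repressor of the circadian clock, read 26.5, 12.5, 32.1 and 10.7 CPM in PAN and 6.94, 7.29, 3.91 and 7.19 CPM in PAN+Pio (-1.69 ± 0.36, adjusted p = 0.0143). Cry1 was the 1 gene called of 18 clock genes, and in PAN its libraries 1 and 3 were the high ones. Its call was lost without the 2 libraries that carry a further number in their column header (highest adjusted p 0.0572). Whether the groups were sampled at like hours is not given.

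Several further lists held no called gene in edgeR's test. Endothelial markers had 0 calls of 24 (3 at an unadjusted p under 0.05, 2 by DESeq2; median -0.04), parietal epithelial markers 0 of 14 (1 and 0; median 0.11) and respiratory chain genes 0 of 42 (2 and 0; median -0.08). Among them Kdr, the VEGF receptor of endothelium, stood at 728 CPM in PAN and 840 CPM in PAN+Pio (0.21 ± 0.18, adjusted p = 0.662). Of 22 targets of the glucocorticoid receptor 2 fell, Pdk4 and Angptl4, which are also on the lipid lists, and none rose (median -0.11). Of all tested genes 2.85% were called lower. The count of 2 was 0 without PAN library 1, 2 or 3 or PAN+Pio library 1, 2 or 4. Fkbp5 and Tsc22d3, classical targets on that list, were at 0.04 and -0.21 (adjusted p = 0.987 and 0.824 in edgeR).

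**Figure D5:**
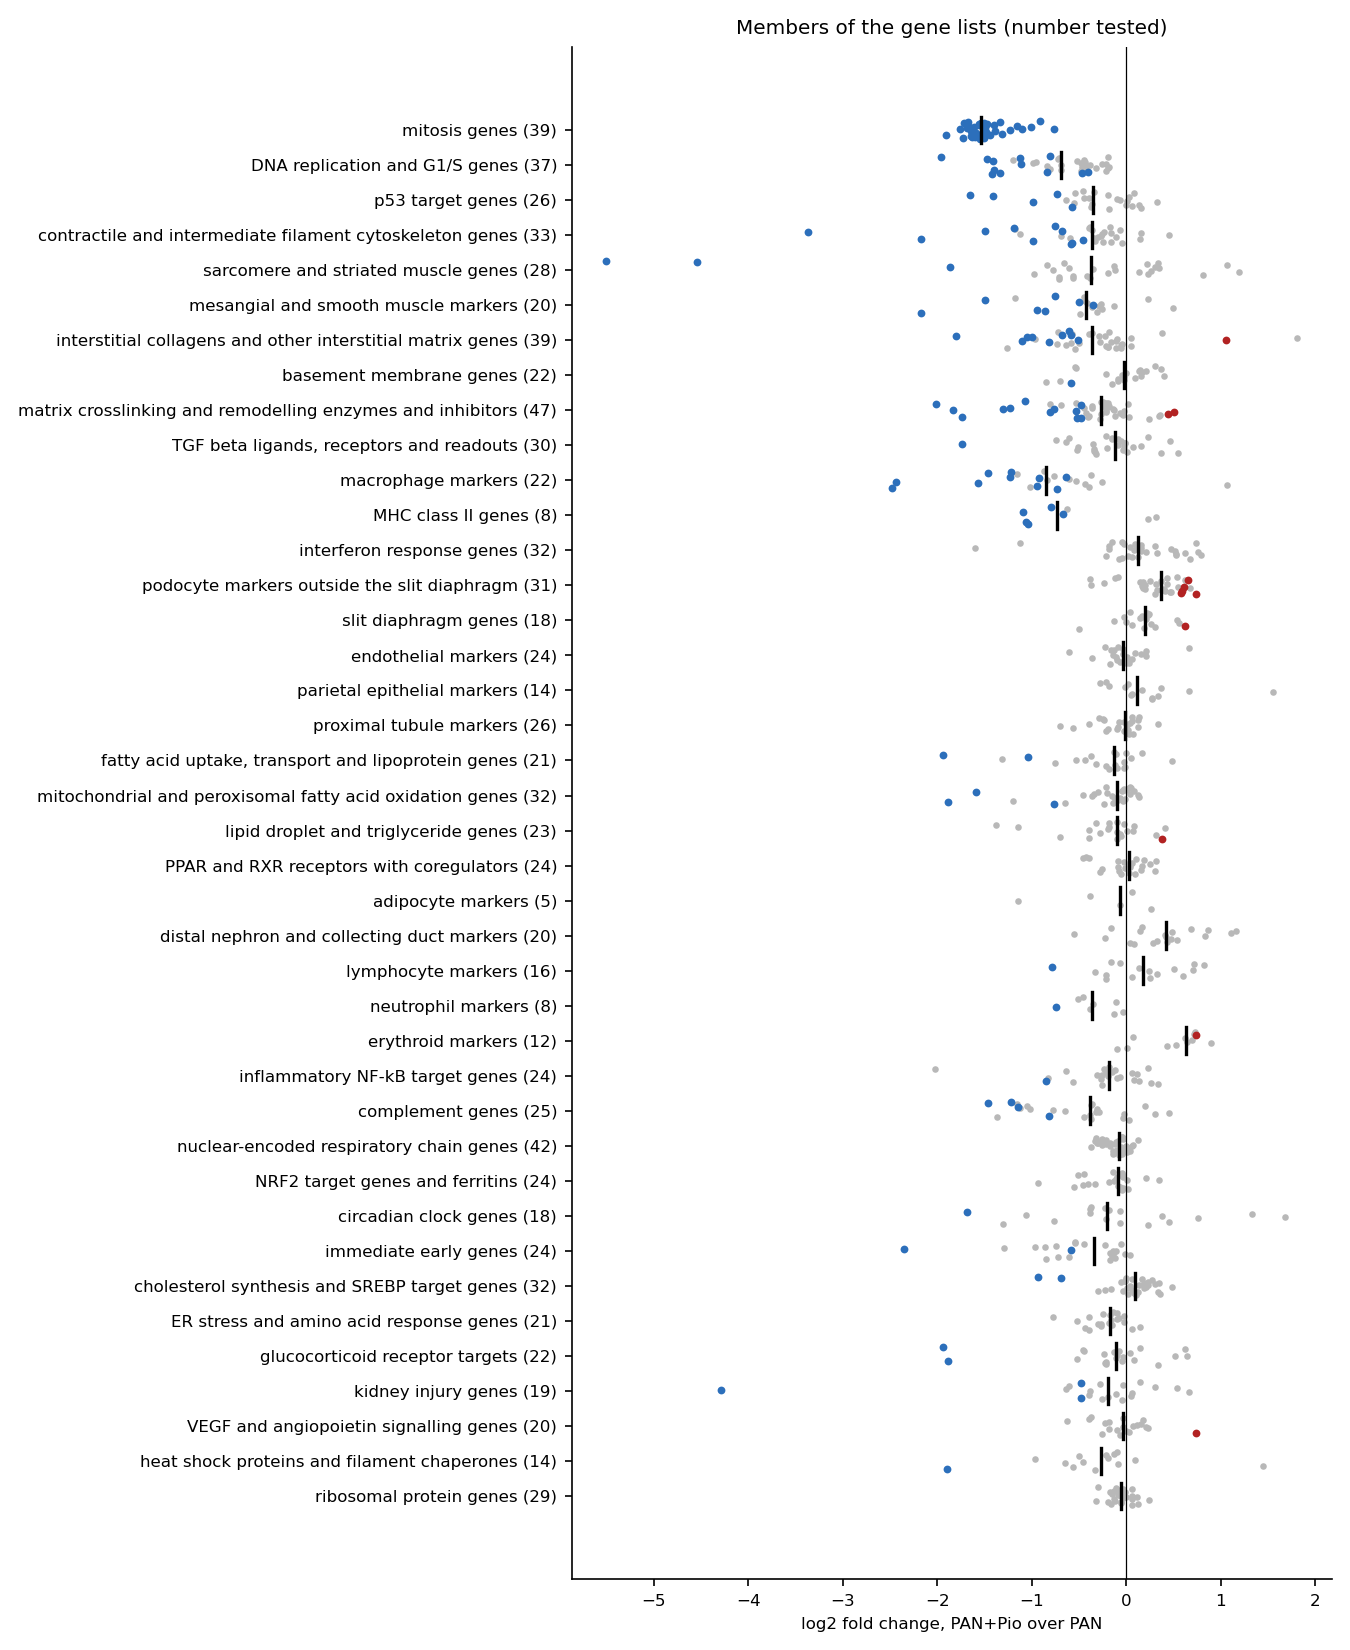
Change between PAN+Pio and PAN (log2 fold change, horizontal axis) of each tested member of the 40 gene lists, with the number tested in brackets. Red and blue points were called higher and lower, grey points were not called, and black bars mark the list medians, which run from -1.54 for mitosis genes to 0.63 for erythroid markers; podocyte markers stand at 0.37 and distal nephron markers at 0.42.

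The pioglitazone-treated glomeruli still differed from sham glomeruli in 867 genes (5.08% of 17061). This comparison shares the PAN+Pio libraries with the one above, so values are set side by side. Synpo2l, at a sham mean of 11.3 CPM, a PAN mean of 478 CPM and a PAN+Pio mean of 242 CPM, was higher than sham by 4.43 ± 0.41 on the log2 scale (adjusted p = 2.39e-05). Ttn was higher by 4.17 ± 0.54 (adjusted p = 0.000647), with means of 12.3, 365 and 223 CPM in the same order. Col1a1 was higher by 3.55 ± 0.59 (adjusted p = 0.00351), with means of 14, 215 and 164 CPM. Des, which pioglitazone lowered, was still above sham by 1.06 ± 0.20 (adjusted p = 0.00882), Adamts14 by 2.76 ± 0.31 (adjusted p = 0.000196) and Cpt1b by 1.48 ± 0.25 (adjusted p = 0.00386). Magi2 was below sham by 1.89 ± 0.21 (adjusted p = 0.000145) and Nmbr by 2.64 ± 0.39 (adjusted p = 0.00165). Of the 39 mitosis genes 1 was called above sham, Bub1b (0.87 ± 0.24, adjusted p = 0.0495). All 39 changes against sham were above 0, with a list median of 0.64. Leaving out sham library 1 or 3 changed the count of 867 to 334 or 528, and it was 336, 396 and 403 without PAN+Pio libraries 1, 3 and 4.

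Pioglitazone and methylprednisolone were set against each other directly. Of 17061 genes 73 (0.428%) were higher and 35 (0.205%) lower in PAN+Pio than in PAN+MP. Mitosis genes were 17 of the 73, with a median of 1.31 over the list, the PAN+MP libraries summing to 137 to 205 CPM. Top2a, the topoisomerase that untangles replicated chromosomes, read 30.7, 16, 36.5 and 33.0 CPM in PAN+Pio and 12.6, 7.25, 6.5 and 7.46 CPM in PAN+MP (1.78 ± 0.31, adjusted p = 0.0206). The groups did not overlap. Bub1b was higher by 1.73 ± 0.25 (adjusted p = 0.0106) and Mki67 by 1.59 ± 0.28 (adjusted p = 0.0207). The clock gene Arntl, which codes for BMAL1, read 82.8, 95.2, 55.0 and 49.1 CPM in PAN+Pio and 17.9, 8.30, 11.6 and 11.9 CPM in PAN+MP (2.51 ± 0.46, adjusted p = 0.0268). In the sham libraries, without either drug, Arntl itself spread from 98.5, 48.5 and 45.1 down to 10.2 CPM. Clock, the partner of Arntl, was higher too, and Per2, Per3, Cry1, Cry2 and Tef were lower, so 7 of 18 clock genes differed. Per2, a repressor of that pair, read 29.2, 33.6, 36.8 and 48.0 CPM in PAN+Pio and 112, 144, 149 and 121 CPM in PAN+MP (-1.83 ± 0.31, adjusted p = 0.0187). Without an hour of sampling in the labels, a difference in hour between the groups and a difference by drug cannot be told apart for these genes. For Des, Tagln, Gpnmb, Vegfa, Nphs1 and Ttc22 the change between the drugs lay between -0.14 and 0.09 with an adjusted p of at least 0.943; with standard errors of 0.14 to 0.28 this does not show that the drugs act alike on them. The count of 108 rests on single libraries: it was 0 without PAN+MP library 2 or 3 (1308 and 1263 genes at an unadjusted p under 0.05), 11 without PAN+MP library 4, and 6, 19 and 24 without PAN+Pio libraries 1, 3 and 4. DESeq2 called 298 genes on all libraries.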

How the data were processed

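Glomerular total RNA of 16 rats was sequenced from directional, ribosome-depleted libraries made from 350 ng of RNA. The authors deposited 1 table of 36351 genes with raw read counts per gene, and all values in the 16 columns used were whole numbers. The authors' log2 fold changes and adjusted p-values in the same table were used only for 1 comparison of calls. Per the submitters' processing notes, cutadapt, STAR, HTSeq 0.6.1p1, DESeq2 and the build Rnor_6.0 were used. The annotation and whether counting used strand are not given in the sources used here. A further 16 per-sample columns were not used. The treatment in a column's name gave its group (CONTROL for sham). The names give no replicate number, so library numbers follow column order and are names only. The PAN columns also carry the word "high", which the labels do not explain.

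Counts were filtered with filterByExpr at a minimum count of 10, which left 17061 genes, scaled by TMM (factors 0.952 to 1.05) and fitted with edgeR 4.0.16 (glmQLFit, glmQLFTest) under R 4.3.3, with limma 3.58.1, in 1 model of 4 groups with 12 residual degrees of freedom. P-values were adjusted by Benjamini-Hochberg over all tested genes, and called at 0.05. Levels are CPM, counts scaled by the TMM-adjusted library size. The biological coefficient of variation was 19.4%. DESeq2 1.42.0, other scalings and filters, a proximal tubule score as covariate, only the groups compared, and leaving out each library were alternatives. On simulated counts for PAN+Pio against PAN (16870 genes, 200 changed), 80% of genes changed by 1 and 97% of those changed by 2 on the log2 scale were recovered, and 11 of 188 calls were genes without a change. The changed genes were drawn only from genes above a minimum expected count. Recovery at lower counts was not tested.

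Members and gene lists were chosen with earlier results of these data known. Genes are named by rule: among called genes with a symbol, a mean of at least 1 CPM in the higher group and no overlap, the 12 largest changes, 6 smallest adjusted p and 5 largest differences in CPM in each direction, up to 4 called members of each list in each direction, and 35 genes whatever their result. Genes named beside these were chosen after their values were seen. Some genes that the rule names are not reported here. Promoters came from RefSeq (GRCr8), and the search for TTTGAA and CCAAT was added after the data were seen.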

Additional observations from a re-analysis of the deposited data

Results flagged for a closer look

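Among 240 sets of 4 libraries looked at (107 genes and 13 list sums in the PAN and the PAN+Pio group), 15 held 1 library far from the other 3, where the gap to its neighbour divided by the range exceeded Dixon's critical value for 4 values. Chance flags about 1 in 20 such sets.

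Of the PAN libraries, library 2 was the far one in 5 of these. It was high for Bub1b (22.7 CPM), Fn1 (739 CPM), Lpl (469 CPM), Mmp12 (15.1 CPM) and the sum of the contractile and filament genes (17300 CPM). PAN library 3 was high for Kif11 (78.9 CPM) and Dpp10 (4.45 CPM), and PAN library 4 was low for Pbk (7.77 CPM) and high for Rxra (49.6 CPM).

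Of the PAN+Pio libraries, library 2 was the low one for Abca1 (59.5 CPM), Adamts14 (8.40 CPM), Tpx2 (9.98 CPM) and the sum of the mitosis genes (234 CPM). PAN+Pio library 3 was low for Cry1 (3.91 CPM) and Phlda3 (6.56 CPM). Without PAN library 2 or PAN+Pio library 2 the numbers of called genes fell as given above, and what sets these libraries apart was not tested.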

How the results depend on the processing

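Between PAN+Pio and PAN, 628 genes changed (142 higher, 486 lower). The count was 637 with DESeq2's size factors, 616 with library totals, 587 without a filter, 655 with a filter of 1 CPM, 626 with robust fitting and 482 when 2 libraries with a further number in their column header (a sham and a PAN+Pio library) were left out. DESeq2 called 1107 (331 higher, 776 lower). With the tubule score as covariate 224 genes were higher, and with only the 2 groups compared 85 were higher. Leaving out 1 library gave 276 to 677 genes in all, 51 to 182 higher and 219 to 495 lower. The higher count moved by over 1.5 times without PAN library 1 (93), 2 (51) or 3 (67) and PAN+Pio library 1 (79), 2 (57) or 4 (60).

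Between PAN+Pio and PAN+MP, 108 genes changed (73 and 35). DESeq2 called 298 (192 and 106), the covariate fit 217 (137 and 80), and the fit of the 2 groups 172 (65 lower). Without the 2 libraries with an extra number 15 were called (11 and 4), and leaving out 1 library gave 0 to 130 (0 to 93 higher, 0 to 37 lower).

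Between PAN+Pio and sham, 867 genes changed (511 and 356). DESeq2 called 1780 (856 and 924), the covariate fit 489 (333 and 156), the fit of the 2 groups 509 (321 and 188), and the fit without the extra-number libraries 507 (159 lower). Leaving out 1 library gave 334 to 1124 (215 to 615 higher, 95 to 509 lower). The cause of these moves was not tested.

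Of 123 genes chosen by rule, 98 were called between PAN+Pio and PAN, and 46 of these kept their call in all 17 alternatives. None changed direction. Calls of these genes were lost most often without PAN+Pio library 2 (44) and PAN library 2 (41), and least often without PAN library 4 (7). Under another scaling the median change of all genes moved by at most 0.01 between PAN+Pio and PAN or PAN+MP, and against sham it was -0.03 with library totals. No paired analysis was possible because the count columns carry no replicate numbers.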
